A study of Mus musculus with 4 samples.

Results

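A set of 40 genes of the G2 and M phases of the cell cycle was followed in brain cells of mice after stroke. The genes were given as a list of 40 symbols, from the S-to-G2 cyclin Ccna2 to the mitotic exit regulator Cdc20, and all 40 were found among the 32286 features of the count matrices. The data are single-cell RNA counts from mice of the genotype Tmem119-2A-CreERT2;Ai6, in which cells that have used the Tmem119 promoter can be marked with the fluorescent protein ZsGreen after Cre activation. Female and male mice had the right middle cerebral artery tied off for good (pMCAO, called stroke here), and sham mice had the operation without the tie. On day 3 the hemisphere of the operated side was taken, tissue of 4 mice was pooled per group, and the living cells with ZsGreen were isolated by flow sorting before droplet capture and 3′ sequencing of their RNA (10x Genomics).

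The groups were 1 pool of female stroke, 1 of male stroke, 1 of female sham and 1 of male sham, so mice within a pool cannot be told apart and no group has a replicate. The mice's ages and the tamoxifen schedule are not given in the sources used here. Tmem119 marks microglia, the resident immune cells of the brain, yet the sorted cells also held other classes, so the gate did not give microglia alone. Of 20437 barcodes, 18045 passed the filters on genes, counts and mitochondrial share. The medians of unique molecular identifiers (UMIs, counted RNA molecules) per kept cell were 9786 and 9430 in the female and male stroke pools, against 5991 and 5647 in the female and male sham pools. No barcode of the male sham pool had fewer than 4198 UMIs, whereas the other 3 pools reached down to 500 or 501. The median mitochondrial share was 4.18% and 4.14% in the female and male stroke pools, against 2.02% and 1.27% in the female and male sham pools. Any 2 pools had between 4 and 11 barcodes in common.

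A cell that has copied its DNA passes through G2, divides its chromosomes in M phase and splits in cytokinesis. Cyclins A and B switch on the kinase Cdk1 to start mitosis, Aurora and Polo kinases build the spindle and check that every chromosome is attached, and the anaphase-promoting complex with Cdc20 then has cyclin B and other proteins destroyed so that the cell can leave mitosis. The genes of this programme are silent in resting cells and are switched on together, in part through promoter elements called the cell cycle genes homology region (CHR) and the CCAAT box. Microglia divide rarely in the healthy adult brain and are known to divide after injury.

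The 40 genes, called members here, lay on 15 chromosomes. In the GENCODE M21 annotation, 8 members had exons that overlap those of a gene on the opposite strand, such as Ccna2 with Exosc9, Nusap1 with Oip5 and Ube2c with Tnnc2, and none overlapped an exon on its own strand. RefSeq promoters of 250 bases before to 50 bases after the start (build GRCm38.p6) were matched by symbol for 35 of the 40 members. Aurkb, Ccna2, Pbk, Smc4 and Tpx2 had no entry.

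The stretches below show where CHR or CCAAT letters stood near the starts of 6 members, and not every stretch held both. Each is the 100 bases before the more upstream of the RefSeq and GENCODE starts, read 5′ to 3′ on the gene's strand, with CHR letters (TTTGAA or its complement TTCAAA) and CCAAT letters (CCAAT or ATTGG) in capitals. The 6 genes stand for the kinase that starts mitosis, chromosome structure, exit, the spindle, the proliferation marker Ki-67, and the member with the lowest level in cells with S phase UMIs relative to cells without them.
Cdk1, chr10:69352939-69353038, minus strand: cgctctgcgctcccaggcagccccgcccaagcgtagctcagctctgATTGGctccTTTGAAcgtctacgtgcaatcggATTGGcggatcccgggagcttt
Top2a, chr11:99024190-99024289, minus strand: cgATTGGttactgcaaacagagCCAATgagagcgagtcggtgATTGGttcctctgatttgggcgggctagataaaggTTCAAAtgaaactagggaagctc
Cdc20, chr4:118437353-118437452, minus strand: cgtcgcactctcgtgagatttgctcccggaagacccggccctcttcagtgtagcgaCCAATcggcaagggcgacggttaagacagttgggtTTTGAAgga
Kif11, chr19:37376282-37376381, plus strand: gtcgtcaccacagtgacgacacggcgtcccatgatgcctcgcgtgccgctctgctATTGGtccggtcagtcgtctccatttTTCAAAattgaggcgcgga
Mki67, chr7:135716380-135716479, minus strand: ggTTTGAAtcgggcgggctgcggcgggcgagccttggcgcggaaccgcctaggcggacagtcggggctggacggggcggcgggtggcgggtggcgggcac
Ccnb2, chr9:70421555-70421654, minus strand: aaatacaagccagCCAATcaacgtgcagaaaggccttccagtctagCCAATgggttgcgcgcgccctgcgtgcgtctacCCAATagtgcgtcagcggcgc

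Cdk1 held 1 set of CHR letters and 2 of CCAAT letters in this stretch. Ccnb2 held 3 of CCAAT letters and no CHR letters there. The CHR letters of Ccnb2 lay outside the stretch, from 167 bases before and from base 5 after the RefSeq start. Mki67 held 1 set of CHR letters and no CCAAT letters in its stretch. The CCAAT letters of Mki67 lay further upstream, from 188, 166 and 141 bases before the RefSeq start. Over the whole promoter window and on either strand, TTTGAA stood in 28 of the 35 members (80.0%), against 5466 of the 27025 genes in the table (20.2%). It stood in 3 of 25 genes of an S phase list with a promoter and in 19 of 33 genes of a second list of G2 and M genes (57.6%). CCAAT stood in 27 of the 35 members (77.1%), against 41.1% of all genes, and 24 members held both sets of letters. It also stood in 14 of the 25 S phase genes (56.0%) and in 23 of the 33 other G2 and M genes (69.7%). The E2F letters TTTCCCGC stood in 0 of the 35 members, 4 of the 25 S phase genes and 1.24% of all genes, and TTTGGCGC stood in 0 members, 5 S phase genes and 0.585% of all genes. The second list of G2 and M genes did hold them, with TTTCCCGC in 1 of 33 and TTTGGCGC in 4 of 33 (12.1%). These are matches of letters and describe the windows only. The members without TTTGAA in the window were Birc5, Bub1, Ccnb1, Cenpe, Nuf2, Nusap1 and Tacc3, which include the member with the largest change after stroke, Ccnb1.

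In microglia-like cells all 40 members rose after stroke. Their UMIs were summed over the microglia-like cells of each pool and the 2 stroke pools were set against the 2 sham pools with sex as a term, in edgeR's quasi-likelihood test with Benjamini-Hochberg adjustment over 14179 genes. All 40 passed at an adjusted p of 0.05, and 25% of all genes tested were called higher (3545 genes), while another 3540 (also 25%) were called lower. The median log2 change of the members was 3.63 and that of all genes was −0.05. The change ran between 2.57 ± 0.16 for Smc2 and 4.32 ± 0.18 for Ccnb1 (log2 ± SE), and the largest adjusted p of a member was 4.78e-14 in edgeR's quasi-likelihood test. With 4 pools and 1 residual degree of freedom the spread behind these p-values is mostly borrowed from the other genes. That spread is how far the stroke change differs between the female and male pools, and it does not measure differences between mice. In such sums, fewer dividing cells and less RNA per cell cannot be told apart. The values below are CPM, a gene's UMIs per 1000000 of the pool's summed UMIs, scaled by edgeR's TMM factors. How many of all genes tested had both stroke pools above both sham pools was not counted, so such separation is only a description.

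**Figure D1:**
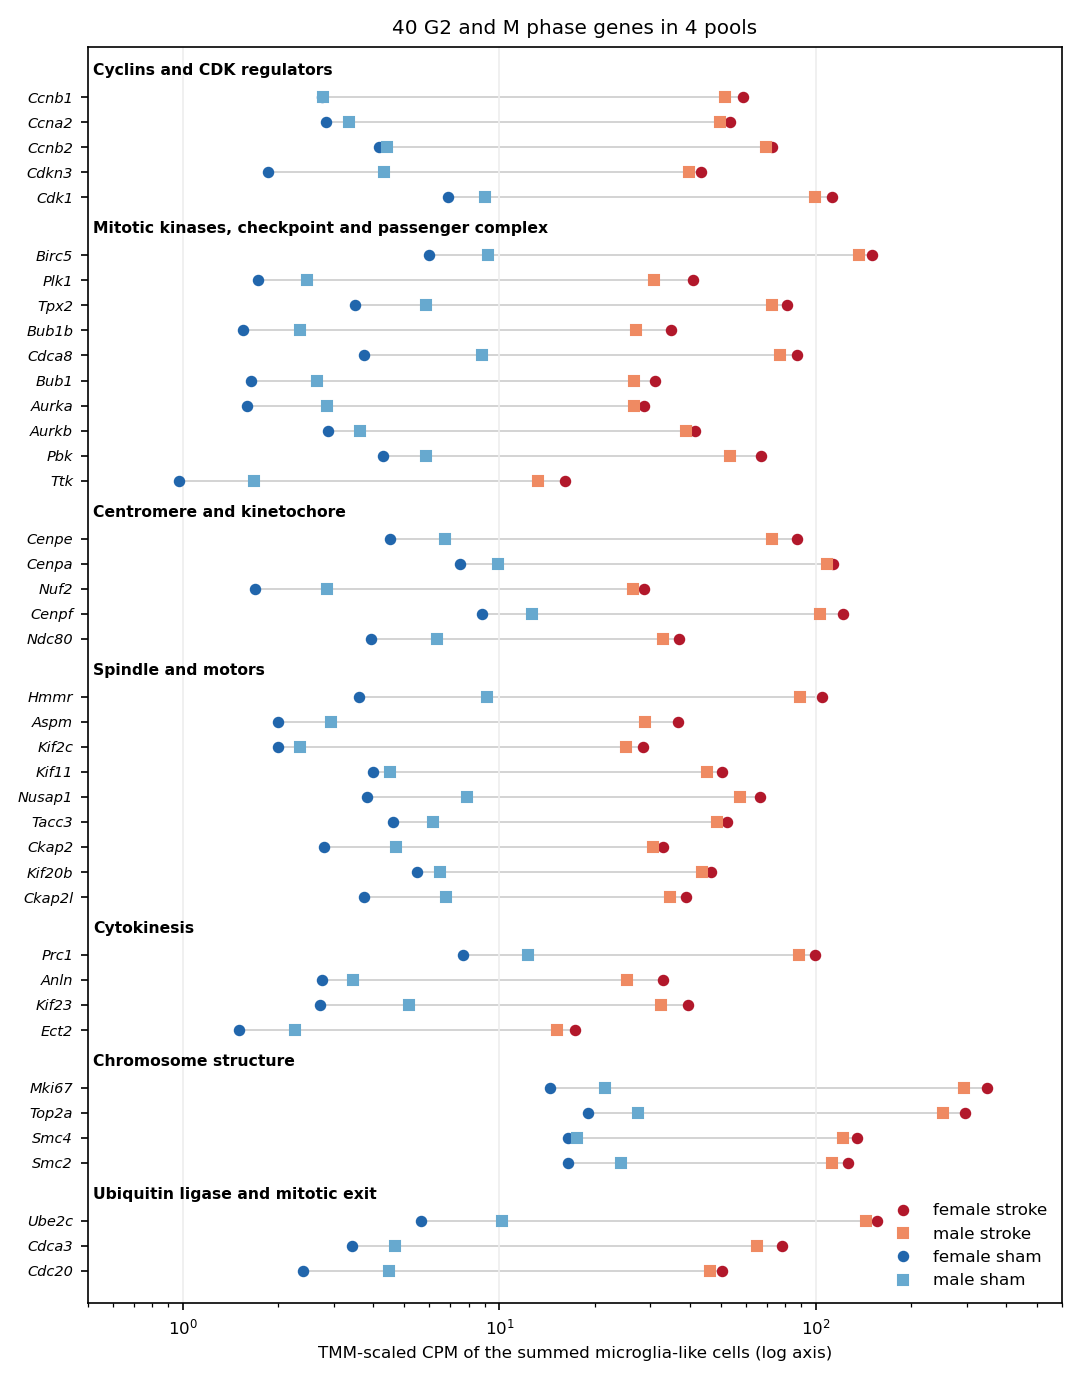
TMM-scaled CPM (log axis) of each of the 40 genes in the summed microglia-like cells of the female stroke, male stroke, female sham and male sham pools, grouped by role and ordered by log2 change within a role. Both stroke points lie to the right of both sham points for all 40 genes, and Ccnb1 shows the largest change (4.32 on the log2 scale) and Smc2 the smallest (2.57). The share of all genes with such separation was not counted.

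Among the cyclins and regulators of Cdk1, all 5 members rose, with a median log2 change of 4.05. Cdk1, the kinase that drives entry into mitosis, stood at 112 and 99.6 CPM in the female and male stroke pools, against 6.87 and 9.02 CPM in the female and male sham pools (log2 change 3.74 ± 0.17). Ccnb1 encodes cyclin B1, the partner of Cdk1, and stood at 58.7 and 51.8 CPM in the stroke pools, against 2.75 and 2.77 CPM in the sham pools. Ccnb2, the second cyclin B, stood at 72.9 and 69.4 CPM in the stroke pools, against 4.16 and 4.41 CPM in the sham pools (4.05 ± 0.17). The stroke and sham pools did not overlap for these 3 genes, and the 2 sham pools differed least for Ccnb1. Ccna2, the cyclin of S phase and G2, rose by 4.06 ± 0.18 on the log2 scale, and Cdkn3, a phosphatase that acts on cyclin-dependent kinases, rose by 3.76 ± 0.21.

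The 10 members of the mitotic kinases, the spindle checkpoint and the chromosomal passenger complex all rose, between 3.45 for Ttk and 4.25 for Birc5 on the log2 scale. Birc5 encodes survivin, a subunit of the passenger complex, and stood at 151 and 137 CPM in the female and male stroke pools, against 5.98 and 9.21 CPM in the female and male sham pools (4.25 ± 0.18). Cdca8, which encodes the passenger subunit borealin, stood at 87.4 and 77.3 CPM in the stroke pools, against 3.72 and 8.78 CPM in the sham pools (3.76 ± 0.20). Tpx2, the activator of Aurora A on the spindle, stood at 80.9 and 72.5 CPM in the stroke pools, against 3.50 and 5.85 CPM in the sham pools (4.04 ± 0.18). The sham pools lay far under the stroke pools for all 3 genes, with the male sham pool above the female one. Plk1, the Polo-like kinase, rose by 4.07 on the log2 scale. The checkpoint kinases Bub1b and Bub1 rose by 3.97 (Bub1b) and 3.73 (Bub1), the Aurora kinases by 3.63 (Aurka) and 3.62 (Aurkb), and Pbk, another mitotic kinase, by 3.56.

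Centromere and kinetochore genes rose in 5 of 5 cases, with a median log2 change of 3.60. Cenpf, a kinetochore protein of late G2 and M, stood at 122 and 103 CPM in the female and male stroke pools, against 8.82 and 12.7 CPM in the female and male sham pools (3.39 ± 0.17). Cenpa, the histone variant that marks centromeres, stood at 113 and 108 CPM in the stroke pools, against 7.49 and 9.91 CPM in the sham pools (3.67 ± 0.16). Cenpe, a kinetochore motor, stood at 87.1 and 72.9 CPM in the stroke pools, against 4.52 and 6.75 CPM in the sham pools (3.82 ± 0.18). The 3 genes had both stroke pools above both sham pools. Nuf2 and Ndc80, partners in the complex that grips microtubules, rose by 3.60 (Nuf2) and 2.77 (Ndc80).

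All 9 spindle and motor genes rose, between 2.82 for Ckap2l and 3.97 for Hmmr on the log2 scale. Hmmr, a microtubule-binding protein of the spindle, stood at 104 and 89.1 CPM in the female and male stroke pools, against 3.59 and 9.17 CPM in the female and male sham pools (3.97 ± 0.21). Nusap1, which bundles spindle microtubules, stood at 66.5 and 57.4 CPM in the stroke pools, against 3.81 and 7.88 CPM in the sham pools (3.43 ± 0.20). Tacc3, which stabilises spindle fibres, stood at 52.3 and 48.9 CPM in the stroke pools, against 4.61 and 6.17 CPM in the sham pools (3.23 ± 0.17). The female and male sham pools differed most among these 3 genes for Hmmr. Aspm, a spindle pole protein, rose by 3.71, and the kinesins rose by 3.61 (Kif2c), 3.49 (Kif11) and 2.91 (Kif20b). Ckap2, a microtubule protein of the spindle, rose by 3.09.

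The 4 cytokinesis genes rose on the log2 scale, by a median of 3.20 and at most 3.25 for Prc1. Prc1, which crosslinks the central spindle, stood at 99.2 and 88.6 CPM in the female and male stroke pools, against 7.66 and 12.3 CPM in the female and male sham pools (3.25 ± 0.17). Kif23, the kinesin of the midzone, stood at 39.5 and 32.5 CPM in the stroke pools, against 2.70 and 5.19 CPM in the sham pools (3.19 ± 0.20). Anln encodes anillin, a scaffold of the cleavage furrow, and stood at 32.9 and 25.4 CPM in the stroke pools, against 2.75 and 3.43 CPM in the sham pools (3.22 ± 0.19). None of the 3 genes had a sham pool within the range of the stroke pools. Ect2, the remaining gene of this group, acts in the formation of the cleavage furrow.

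Chromosome structure genes rose in 4 of 4 cases and included the member with the smallest change, Smc2. Mki67, which encodes the proliferation marker Ki-67, stood at 347 and 293 CPM in the female and male stroke pools, against 14.4 and 21.5 CPM in the female and male sham pools (4.16 ± 0.18). Top2a, the topoisomerase that untangles sister chromatids, stood at 297 and 253 CPM in the stroke pools, against 19.0 and 27.5 CPM in the sham pools (3.58 ± 0.17). Smc4 and Smc2 form the core of condensin, which packs mitotic chromosomes. Smc4 stood at 135 and 122 CPM in the stroke pools, against 16.4 and 17.6 CPM in the sham pools (2.92 ± 0.15). Smc2 stood at 127 and 112 CPM in the stroke pools, against 16.5 and 24.2 CPM in the sham pools (2.57 ± 0.16). The condensin genes had the smallest changes of this group, and their stroke and sham pools did not overlap.

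The 3 genes of the ubiquitin ligase and mitotic exit rose by a median of 4.14 on the log2 scale, the highest median of the 7 role groups. Ube2c, the ubiquitin-conjugating enzyme that works with the anaphase-promoting complex, stood at 156 and 144 CPM in the female and male stroke pools, against 5.67 and 10.2 CPM in the female and male sham pools (4.26 ± 0.19). Cdca3, named as a trigger of mitotic entry, stood at 78.5 and 65.0 CPM in the stroke pools, against 3.41 and 4.68 CPM in the sham pools (4.14 ± 0.18). Cdc20, the activator of the anaphase-promoting complex, stood at 50.4 and 46.3 CPM in the stroke pools, against 2.39 and 4.49 CPM in the sham pools (3.82 ± 0.19). All 3 were higher in each stroke pool than in either sham pool.

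All 40 members rose under every alternative that was run, among them DESeq2, library totals, cells thinned to 3000 UMIs and each pool left out. With library totals in place of TMM the median log2 change of all genes moved to −0.35 and the members lay between 2.27 and 4.02. Without the female stroke pool, 2329 genes were called higher and 1682 lower, and without the male stroke pool 2439 and 1827. The stroke cells also carried a higher mitochondrial share and more UMIs per cell than the sham cells, as given above. At a mitochondrial limit of 5%, the summed members stood at 30.4 and 25.1 per 10,000 UMIs in the female and male stroke pools. In the female and male sham pools they stood at 2.24 and 3.16. Of microglia-like cells with at least 3000 UMIs, the limit kept 1601 of 3196 in the female and 1697 of 2988 in the male stroke pool. In the female and male sham pools it kept 2826 of 2863 and 3989 of 3991.

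All 40 members rose in both sexes, and no member was called between the sexes. In the same edgeR quasi-likelihood fit 0 of 40 members differed between female and male pools with Benjamini-Hochberg adjustment (adjusted p = 0.998 for each), where 0.0846% of 14179 genes (12 genes) were called. None of the 40 had an unadjusted p under 0.05, and DESeq2 also called 0. The log2 difference, female over male, lay between −0.33 for Hmmr and 0.16 for Plk1. All 40 had a higher CPM in the female than in the male stroke pool, and all 40 had a lower CPM in the female than in the male sham pool. The sex term of the fit averages over stroke and sham, so these opposite differences offset each other in it. The lack of calls therefore cannot show that the sexes agree. The log2 change after stroke was larger in females for all 40, with a median of 4.07 in females and 3.25 in males. The members share the cells of a pool, so the 40 are not 40 separate observations, and with 1 pool of each kind this difference between the sexes was not tested. With the male sham UMI minimum applied to every pool and library totals, the medians were 3.72 in females and 3.02 in males, and all 40 stayed larger in females.

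Among classes with at least 50 cells, microglia-like cells of the stroke pools had the highest member levels. The 40 genes together made up 28.4 of every 10,000 UMIs in female stroke microglia-like cells (exact Poisson 95% interval 28.3 to 28.6, 3462 cells) and 24.8 in male stroke ones (24.6 to 24.9, 3255 cells). In sham microglia-like cells they made up 2.24 in females (2.17 to 2.31, 3167 cells) and 3.16 in males (3.09 to 3.24, 3991 cells). The stroke level was 12.7 times the sham level in females and 7.83 times in males. The intervals cover counting error only and there is 1 pool of each kind, so the ratios carry no test.

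**Figure D2:**
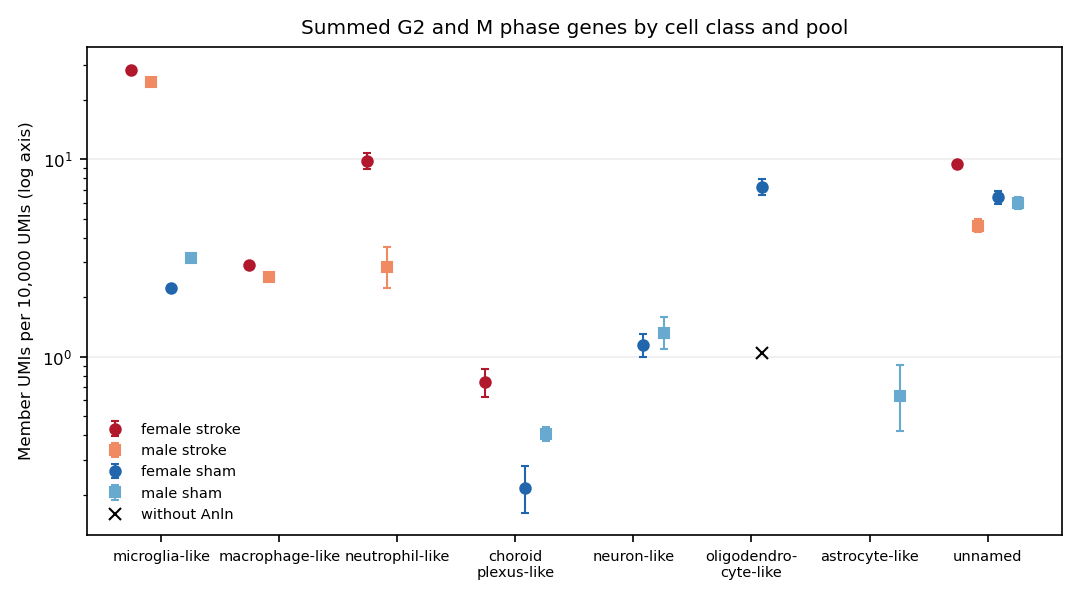
UMIs of the 40 genes per 10,000 UMIs (log axis) in each cell class and pool with at least 50 cells, with exact Poisson 95% intervals, and a cross for the oligodendrocyte-like cells without Anln. Stroke microglia-like cells stand highest at 28.4 and 24.8, and the oligodendrocyte-like point of 7.26 drops to 1.04 without Anln.

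Macrophage-like cells, the class marked by Arg1, Chil3 and other genes of monocyte-derived macrophages, had 2.91 member UMIs per 10,000 in the female stroke pool (1075 cells) and 2.54 in the male stroke pool (566 cells). Their cluster had 9 markers of monocyte-derived macrophages, 6 of microglia and 5 of border-associated macrophages in at least 25% of its cells. Where these cells came from was not tested. The sham pools held 5 and 19 such cells, too few for a level. Set against microglia-like cells of the same stroke pools, all 40 members were lower in macrophage-like cells (edgeR's quasi-likelihood test with the pool as a term and Benjamini-Hochberg adjustment, largest adjusted p 2.34e-08), where 36.8% of 13424 genes tested were called lower and 35.1% higher. The median log2 difference, macrophage-like over microglia-like, was −3.37 for the members and −0.05 for all genes. It was furthest from 0 for Hmmr at −4.33 ± 0.11, Aspm at −4.14 ± 0.18 and Ckap2l at −3.97 ± 0.15. It was nearest to 0 for Cenpa at −1.23 ± 0.09, Smc4 at −1.61 ± 0.07 and Smc2 at −1.98 ± 0.10. Cenpa had 626 and 254 UMIs in the macrophage-like sums of the female and male stroke pools, and Ttk had 29 and 5.

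The few macrophage-like cells with many member UMIs were mixed in their markers. There were 23 cells in the female stroke pool and 6 in the male stroke pool with at least 20 member UMIs, and they held 56.1% of the class's member UMIs in each pool. Of these cells, 65.2% of the female and 66.7% of the male ones had more UMIs of microglia markers than of macrophage markers. Among macrophage-like cells with 0 to 2 member UMIs the shares were 6.73% and 7.19%. The cells with at least 20 also had a median of 28308 and 36877 UMIs, against 12307 and 12696 in those with 0 to 2. Whether 2 cells shared a droplet was not tested. When the cell cycle genes were allowed into the clustering, the median log2 difference of the members was −4.58 and all 40 stayed lower. The members can then help to place the cells, so the larger difference is not an independent check.

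Most of the other named classes had low levels, and the exceptions among them rested on 1 gene or on few cells. Cells of clusters that took no class name had 9.43 and 4.61 member UMIs per 10,000 in the female and male stroke pools. In the female and male sham pools they had 6.42 and 6.01. The top 1% of these cells held 16.1% and 47.6% of their member UMIs in the female and male stroke pools. In the female and male sham pools it held 76.9% and 69.2%. Choroid plexus-like cells had 0.740 member UMIs per 10,000 in the female stroke pool, against 0.215 in the female sham and 0.406 in the male sham pool. Neuron-like cells had 1.14 in the female sham and 1.32 in the male sham pool, and astrocyte-like cells had 0.630 in the male sham pool. The most counted member was Cdk1 in choroid plexus-like and Smc2 in neuron-like cells of both sham pools. The source of these counts, such as free RNA in droplets, was not tested. Oligodendrocyte-like cells of the female sham pool stood out at 7.26, but Anln made up 85.7% of their member UMIs, and without it the level was 1.04. Anillin is also expressed in myelinating oligodendrocytes outside of division, so it is not a mark of division there. Neutrophil-like cells had 9.84 in the female stroke pool (116 cells) and 2.84 in the male stroke pool (68 cells). In the female stroke pool 2 of these cells held 71.2% of the class's member UMIs.

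To compare cells at equal depth, each cell was thinned at random to 3000 UMIs and a cell was counted when it kept at least 3 member UMIs. The share was 27.8% in female stroke microglia-like cells (888 of 3196 cells, exact binomial 95% interval 26.2 to 29.4) and 25.1% in male stroke ones (750 of 2988, 23.6 to 26.7). It was 1.15% in female sham cells (33 of 2863, 0.795 to 1.61) and 1.75% in male sham cells (70 of 3991, 1.37 to 2.21). Cells with fewer than 3000 UMIs were left out, namely 266 and 267 in the female and male stroke pools and 304 and 0 in the female and male sham pools. Without thinning the shares were 40.6% and 38.2% in the stroke pools, against 3.32% and 3.08% in the sham pools. Macrophage-like cells, which were deeper, gave 3.12% (female stroke) and 1.44% (male stroke) after thinning and 29.5% (female stroke) and 23.9% (male stroke) without it.

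Cells of classes that should not divide were taken as the background of this measure. Their clusters also had microglia markers in at least 25% of their cells. The choroid plexus-like cluster had 6 of microglia and 6 of choroid plexus. The larger neuron-like cluster had 5 of microglia and 5 of neurons, and the neutrophil-like cluster 5 of microglia and 5 of neutrophils. Whether these droplets also held microglia or their RNA was not tested. Choroid plexus-like cells gave 1.19% in the female stroke pool (1 of 84 cells), 0 of 105 in the female sham pool, which allows a share of up to 2.86%, and 0.372% in the male sham pool (2 of 537). Neuron-like cells gave 0.355% in the female sham pool and 1.47% in the male sham pool. The median depths before thinning were 17145 and 21735 UMIs in choroid plexus-like and 5078 and 5698.5 in neuron-like cells of the female and male sham pools, against 6173 and 5419 in microglia-like cells of the same pools. The sham microglia-like shares lay within the intervals of the neuron-like cells of the same pools. Against choroid plexus-like cells the female sham share lay within the interval of 0 to 3.45%, while the male sham share lay above the interval of 0.0451% to 1.34%. Whether sham cells stood above background by the cut thus differed with the class taken as background. The stroke shares lay above the upper bounds of both classes in the sham pools. Neutrophil-like cells, also taken as a background class, gave 12.3% in the female stroke pool (8 of 65 cells, 5.47 to 22.8). In the male stroke pool they gave 9.68% (3 of 31 cells, 2.04 to 25.8). The female stroke microglia-like share of 27.8% lay above the female interval, while the male share of 25.1% lay within the male one. Oligodendrocyte-like cells of the female sham pool, where Anln dominated, gave 39.4% (13 of 33 cells). Near the cut, 186 and 196 cells had 2 and 98 and 76 cells had 3 member UMIs in the female and male stroke pools.

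In sham pools few cells held most of the member UMIs. In female and male sham microglia-like cells the top 1% of cells by member UMIs held 75.7% and 75.0% of all member UMIs, against 18.0% and 19.6% in female and male stroke cells. Before thinning, 15 female sham and 51 male sham cells had at least 20 member UMIs, and these cells expressed a median of 36 and 30 of the 40 genes. In the stroke pools 714 female and 626 male cells had at least 20, with a median of 29 and 27 of the 40 genes. In every pool such a cell typically carried most of the list. At the other end, 31.7% and 32.2% of female and male stroke cells had 0 member UMIs, against 75.1% and 72.3% of female and male sham cells.

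Mki67 was counted in 28.1% and 25.4% of female and male stroke microglia-like cells, against 0.758% and 1.58% of female and male sham ones. It was counted in 9.02% and 7.77% of female and male stroke macrophage-like cells. Top2a was counted in 23.1% and 21.5% of female and male stroke microglia-like cells, against 0.916% and 1.88% of female and male sham ones. These shares are not thinned, so they also follow the depth of the class. As a background, 8.51% and 2.94% of neuron-like cells of the female and male sham pools had a Mki67 UMI, above the share in sham microglia-like cells. Among choroid plexus-like cells of the same pools, which were deeper, 0% (female sham) and 0.931% (male sham) had one, below the share in sham microglia-like cells. For Mki67, too, the sham cells lay above one of these classes and below the other.

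Cells above the cut had more RNA. In the stroke pools the median was 14760 and 15218.5 UMIs in female and male cells with at least 3 member UMIs, against 7830 and 7933.5 in cells with 0. Although every cell was thinned to the same number, the share above the cut climbed with the cell's UMIs before thinning. In the female stroke pool it was 12.1%, 15.8%, 33.4% and 61.8% for cells with 3000 to under 5000, 5000 to under 10000, 10000 to under 20000 and 20000 or more UMIs. In the male stroke pool it was 7.88%, 15.2%, 29.8% and 57.4%. Stroke exceeded sham in each of the 3 lower bins. Among cells of 10000 to under 20000 UMIs the shares were 33.4% and 29.8% in the female and male stroke pools, against 2.94% of 170 and 13.9% of 166 cells in the female and male sham pools. The sham pools had under 20 cells above that range.

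**Figure D3:**
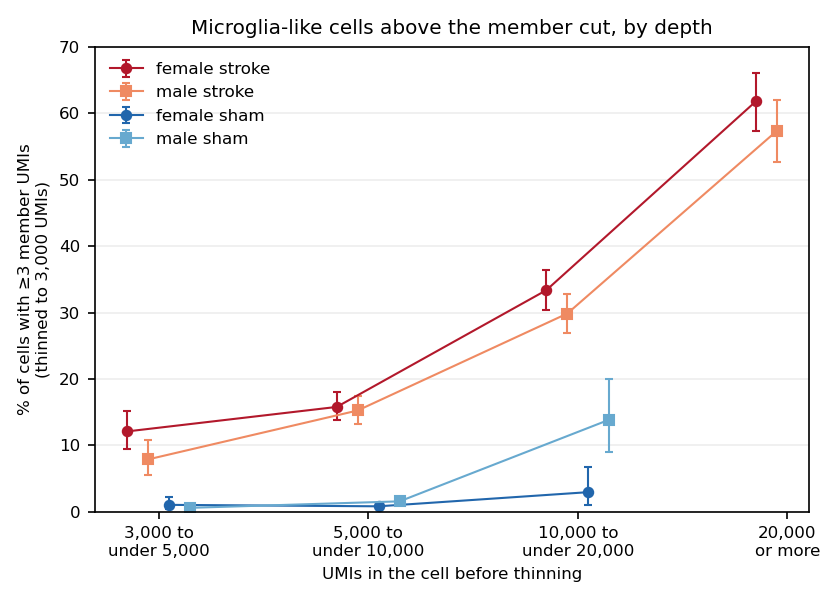
Percent of microglia-like cells with at least 3 member UMIs after thinning to 3000 UMIs, by the cell's UMIs before thinning, for the female stroke, male stroke, female sham and male sham pools, with exact binomial 95% intervals. The stroke lines climb to 61.8% and 57.4%, and the male sham point at 10,000 to under 20,000 UMIs reaches 13.9%.

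Within the microglia-like class the programme was uneven. The clusters were built without the cell cycle lists, and the shares below are descriptions with no test. Cluster 10, led by cell cycle genes that were in no list such as Pclaf and Tk1, had 97.7% of female and 96.8% of male stroke cells above the cut. Cluster 8, led by Spp1, Ch25h and Igf1, had 49.7% and 58.1%. Cluster 5, led by Cox6a2, Cst7 and Lpl among others, had 38.8% and 37.1%. The spindle gene Knstrn, which was in no list, was also among the leading genes of cluster 5. Cluster 9, led by the interferon-induced genes Cxcl10, Ifit3 and Rsad2, had 26.3% (female stroke) and 18.9% (male stroke). In summed UMIs, cluster 9 had 21.2 member UMIs per 10,000 in female stroke cells and 9.78 in male stroke cells. These clusters were also deep, with medians over all pools of 19509 UMIs in cluster 8, 16696 in 10, 12059 in 5 and 9883 in 9. The medians were 6464.5 in cluster 2 and 5801 in cluster 0. Whether the clusters differ at equal depth before thinning was not tested.

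The remaining clusters were low. Cluster 2, the most common of the stroke pools at 30.5% of female and 22.9% of male microglia-like cells, had 6.56% and 3.42% of cells above the cut. Cluster 6, led by the early response genes Fosb and Fos, had 3.66% and 3.39% in the female and male stroke pools, against 6% of 50 cells and 0.962% of 104 cells in the female and male sham pools. Cluster 0 held 72.0% of female sham microglia-like cells and had 0.449% of them above the cut, and cluster 1 held 53.4% of male sham ones and had 0.375%. Different clusters thus held most of the class in stroke and in sham, namely 2, 5, 6, 8, 9 and 10 in stroke and 0, 1 and 4 in sham. Most member UMIs of the stroke pools lay in clusters 5, 8, 9 and 10. Of the 54 sham cells in cluster 10, 12 were female and 42 were male.

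**Figure D4:**
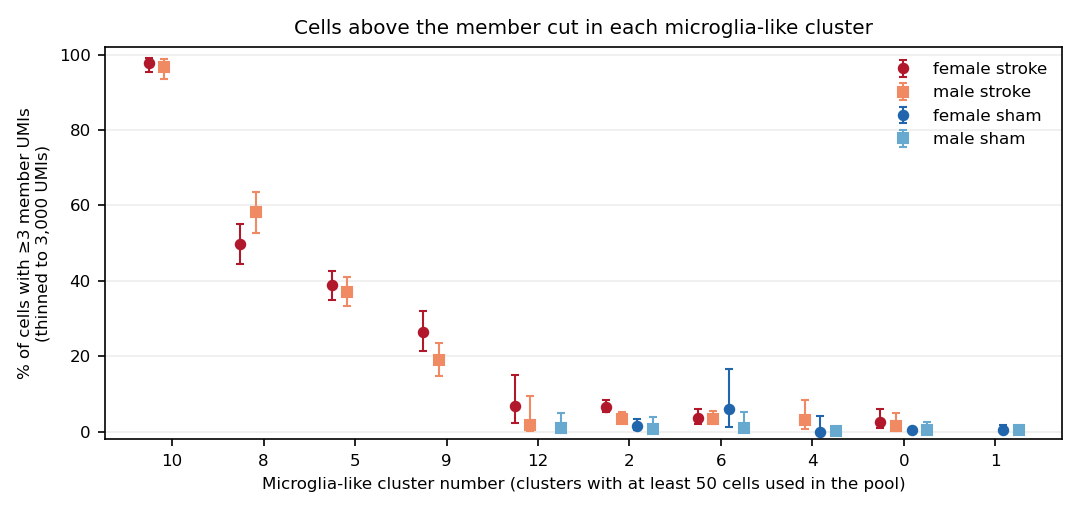
Percent of cells with at least 3 member UMIs after thinning to 3000 UMIs in each microglia-like cluster, for pools with at least 50 cells used in that cluster, with exact binomial 95% intervals. Cluster 10 is near 100% in both stroke pools, clusters 8, 5 and 9 follow between 58.1% and 18.9%, and the clusters that hold most sham cells lie under 1% in the sham pools.

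The members were set against an S phase list of 31 genes of DNA replication, such as Pcna and the Mcm genes, in the same thinned cells. In the female and male stroke pools 15.8% and 14.1% of cells had at least 3 UMIs of both lists, 9.79% and 8.23% of the S list only, and 12% and 11.0% of the members only. In the female and male sham pools 0.524% and 1.25% had both, 5.45% and 5.51% the S list only, and 0.629% and 0.501% the members only. All 3 states were more frequent in the stroke pools, and the S-only state was the most frequent of the 3 in sham cells. Genes of the S list also serve resting cells, so S UMIs alone do not mark replication.

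Among stroke cells with at least 3 UMIs of the other 39 members, each gene's level in cells with 3 or more S phase UMIs was divided by its level in cells with 0. The ratios order the genes relative to each other. A ratio above 1 does not by itself place a gene in S phase, since most members had one. The ratio was highest for Aurkb at 4.71, Ttk at 3.47, Top2a at 3.36, Cdk1 at 3.22 and Pbk at 3.09. Aurkb rested on 341 UMIs in 923 cells with S UMIs and 24 in 306 cells without, and Ttk on 105 and 10. It was lowest for Ccnb2 at 0.376, Cdkn3 at 0.625, Cenpa at 0.711, Cdc20 at 0.730 and Ckap2 at 0.906. Ccnb2 rested on 258 UMIs in 918 cells with S UMIs and 210 in 281 cells without. Of the 40 genes, 32 had a ratio above 1. Which genes stood at the ends moved with the processing: across 5 alternatives 2 or 3 of the highest 5 and 3 to 5 of the lowest 5 were shared.

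The order had cyclin A ahead of the B cyclins. Ccna2 stood at 2.44, Ccnb1 at 1.25 and Ccnb2 at 0.376. Condensin and topoisomerase genes had ratios of 2.52 for Smc2, 1.95 for Smc4 and 3.36 for Top2a. The exit genes lay lower, with 1.39 for Ube2c, 1.33 for Cdca3 and 0.730 for Cdc20. By role the median ratio was 2.24 for chromosome structure, 2.00 for the kinases, checkpoint and passenger complex, 1.69 for cytokinesis, 1.34 for spindle and motors, 1.33 for the ubiquitin ligase and exit, 1.25 for cyclins and regulators, and 1.16 for centromere and kinetochore. The role groups overlapped widely, since the kinases alone ran between 1.21 for Birc5 and 4.71 for Aurkb. The order of the 40 genes had a Spearman rank correlation of 0.786 between the female and male stroke pools. The genes share the cells, the depth and the S list in this comparison, so the rank correlation is a description.

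A second order was taken over the load of the programme, as a gene's level in cells with at least 20 UMIs of the other members over its level in cells with 3 to 9. The ratio was highest for Aurka at 50.7, Prc1 at 22.3, Plk1 at 21.4, Nusap1 at 18.5 and Aspm at 16.9. Aurka rested on 5 UMIs in the lightly loaded cells, so its ratio is imprecise, while Prc1 rested on 41 and Plk1 on 14. It was lowest for Ccnb2 at 1.62, Cdkn3 at 2.37 and Cdca3 at 3.01, whose levels differed least between lightly and heavily loaded cells. Cytokinesis genes had the highest median of the role groups at 15.6, against 4.83 for chromosome structure. The Spearman rank correlation between the female and male stroke pools was 0.839, and between both orders over the 40 genes it was 0.147. Ccnb2 was the lowest and Cdkn3 the next lowest in both orders.

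**Figure D5:**
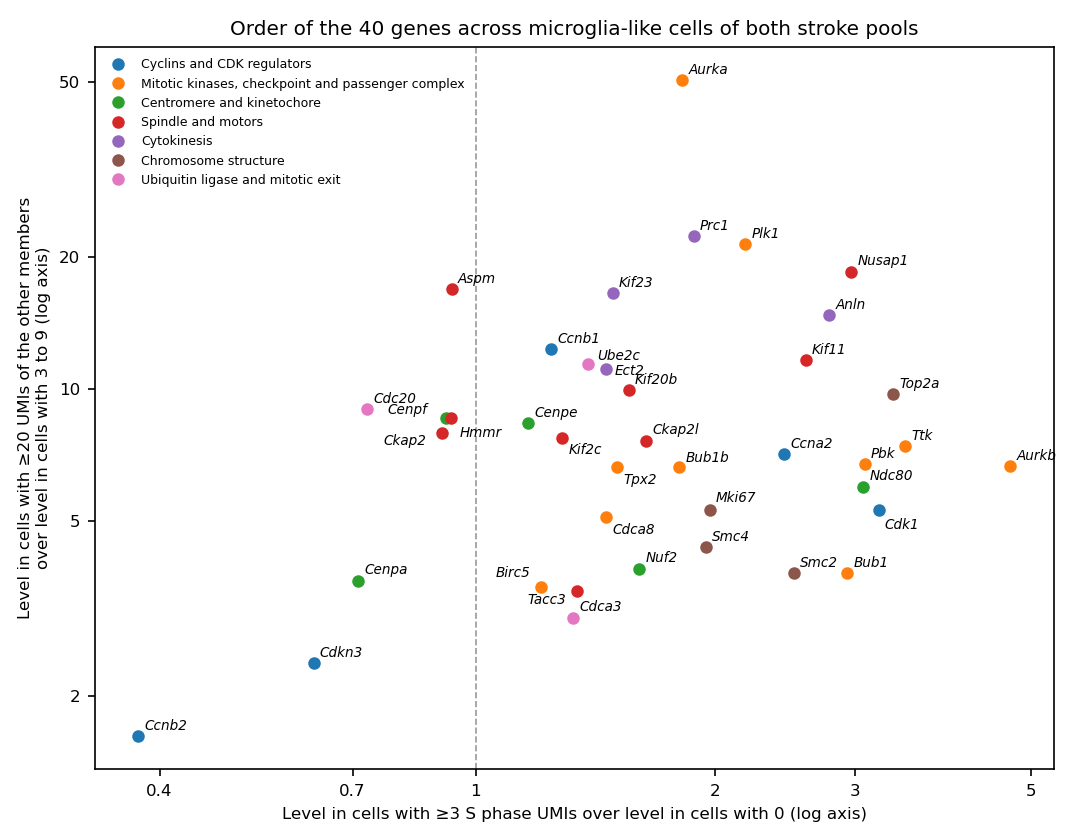
For each of the 40 genes, its level in stroke microglia-like cells with at least 3 S phase UMIs over that in cells with 0 (horizontal, log axis), against its level in cells with at least 20 UMIs of the other members over that in cells with 3 to 9 (vertical, log axis), coloured by role. Aurkb, Ttk and Top2a stand at the right at 4.71, 3.47 and 3.36, Aurka and Prc1 at the top at 50.7 and 22.3, and Ccnb2 at the lower left at 0.376 and 1.62.

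The genes outside all lists that went most with the summed members across thinned stroke cells were taken by their correlation. The Pearson r, averaged over the 2 stroke pools, was 0.65 for H2afz, 0.60 for Tuba1b, 0.59 for Pclaf, 0.55 for Tubb4b, 0.55 for H2afx, 0.53 for Tubb5, 0.49 for Ptma, 0.49 for Ube2s, 0.47 for Tuba1c and 0.47 for Nucks1. H2afz encodes a histone variant, Pclaf a partner of PCNA, and Ube2s the ubiquitin-conjugating enzyme that extends chains for the anaphase-promoting complex. The lowest values were −0.44 for Cst3, −0.40 for Itm2b and −0.38 for Ctss, which are abundant transcripts of microglia. These r values run over 3196 and 2988 cells of 1 female and 1 male pool and describe those cells, whose thinned totals are fixed, so that more UMIs of one gene leave fewer for the others.

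The other lists of the cell cycle were counted in the same edgeR fit of stroke over sham. All 31 S phase genes rose, with a median log2 change of 2.26, below the 3.63 of the members. Rrm2, a subunit of ribonucleotide reductase, stood at 59.4 and 49.9 CPM in the female and male stroke pools, against 3.81 and 5.27 CPM in the female and male sham pools (3.58 ± 0.18). Uhrf1, which keeps DNA methylation through replication, rose by 3.53 ± 0.19. All 10 S phase histone genes rose, led by Hist1h1b at 3.82 ± 0.18 and Hist1h3c at 2.92 ± 0.22. Among 40 further G2 and M genes, 39 rose with a median of 3.13, led by Kif18b, a mitotic kinesin, at 4.41 ± 0.29 and Cdc25c, the phosphatase that activates Cdk1, at 3.82 ± 0.32. The exception was Pttg1, which encodes securin. It stood at 42.6 and 45.5 CPM in the stroke pools, against 46.0 and 58.2 CPM in the sham pools (−0.24 ± 0.14, adjusted p = 0.154 in edgeR's quasi-likelihood test). With library totals Pttg1 passed as lower, at −0.53, and so it did without the female sham pool, at −0.41.

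Of 15 genes that control transcription of the programme, 8 rose, 2 fell and 5 did not pass, where 25% of all genes were called higher and 25% lower. Mybl2, the Myb protein that joins the complex at CHR promoters, stood at 5.22 and 4.18 CPM in the female and male stroke pools, against 0.487 and 0.429 CPM in the female and male sham pools (3.34 ± 0.33). E2f1 rose by 2.98 ± 0.18. Rbl2, which encodes the pocket protein p130 of resting cells, fell by 0.45 on the log2 scale and Lin37, a subunit of the repressive complex on the same promoters, by 0.35. Rbl2 had an adjusted p of 0.00895 in edgeR's quasi-likelihood test, but 0.25 without the female stroke pool, 0.0925 without the male stroke pool and 0.121 with DESeq2. Lin37 had 0.0459, but 0.345 without the female stroke pool, 0.234 without the male stroke pool and 0.187 without the male sham pool, and it also lost its call with no filter, with DESeq2 and in both other clusterings (0.0513 to 0.321). The values that did not pass were 0.27 for Lin9, 0.22 for Lin54, −0.08 for Lin52, −0.21 for Rb1 and −0.22 for E2f3, and without the female sham pool Lin9 passed at 0.37, Rb1 at −0.27 and E2f3 at −0.25. With library totals Rb1 passed at −0.50 and E2f3 at −0.52.

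Brakes of division went both ways, with 7 of 13 higher, 5 lower and 1 not passing, where 25% of all genes were called higher and 25% lower. Wee1 and Pkmyt1, kinases that hold Cdk1 inactive, rose by 2.78 ± 0.25 and 2.52 ± 0.24. Of the 6 inhibitors of cyclin-dependent kinases on the list, 4 rose, by 2.33 (Cdkn2a), 2.15 (Cdkn2c), 2.03 (Cdkn1a) and 1.70 (Cdkn2d), and 2 fell. One that fell was Cdkn1c, which encodes the inhibitor p57. It stood at 5.83 and 6.86 CPM in the female and male stroke pools, against 21.2 and 24.9 CPM in the female and male sham pools (−1.86 ± 0.16). Btg2, an antiproliferative gene that also answers early stimuli, changed by −1.15, Ccng2 by −0.68, Cdkn1b, which encodes the inhibitor p27, by −0.65 and Btg1 by −0.38. Btg1 lost its call without the female or the male stroke pool, with adjusted p = 0.49 (female left out) and 0.234 (male left out) in edgeR's quasi-likelihood test, and also with no filter (0.0754) and with DESeq2 (0.0642). Fzr1, the activator of the anaphase-promoting complex in G1, had 0.19 ± 0.14 and passed at 0.34 without the male sham pool.

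Of 7 G1 cyclins and kinases, 2 rose, 1 fell and 4 did not pass, shares near or under the 25% of all genes called in each direction. Cdk4 stood at 121 and 113 CPM in the female and male stroke pools, against 51.9 and 67.6 CPM in the female and male sham pools (0.98 ± 0.14). Cdk2 rose by 0.44 and Ccnd1 fell by 0.38 on the log2 scale. Cdk2 lost its call without the female stroke pool (edgeR adjusted p = 0.144), the male stroke pool (0.192) or the male sham pool (0.0653), and with library totals (log2 0.14, adjusted p = 0.462) or DESeq2 (0.124). Ccnd1 lost its call without the female stroke pool (0.154) or the male stroke pool (0.374), with no filter (0.0579) and with DESeq2 (0.136). Ccnd2 at −0.78, Ccnd3 at −0.04, Cdk6 at 0.19 and Myc at 0.07 did not pass. Without the female sham pool Ccnd2 passed at −1.38 and Cdk6 at 0.49, and with library totals Ccnd2 passed at −1.07 and Ccnd3 at −0.34.

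Of 7 receptors and ligands of microglial growth, 6 were tested. Igf1, a growth factor, stood at 31.0 and 29.7 CPM in the female and male stroke pools, against 1.51 and 1.80 CPM in the female and male sham pools (4.19 ± 0.20). Csf1, the ligand that microglia need to live and divide, rose by 2.13 ± 0.16, and Csf2ra and Csf2rb also rose. Igf1r fell by 0.91 ± 0.14. Csf1r, the receptor of Csf1, stood at 2129 and 2228 CPM in the stroke pools, against 2814 and 2446 CPM in the sham pools, and did not pass (−0.27 ± 0.16, adjusted p = 0.163 in edgeR's quasi-likelihood test). It passed as lower without the female sham pool, at −0.17, without the male sham pool, at −0.31, and with library totals, at −0.57.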

How the data were processed

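Deposited UMI counts per gene and cell were used as the authors gave them. Per the submitters' processing notes they were made with Cell Ranger 7.1.0 and mm10, while the file headers name cellranger 6.1.2; the sources used here do not say whether introns were counted. The 4 libraries held 66072270 (female stroke), 52733857 (male stroke), 29581392 (female sham) and 40970923 (male sham) UMIs. Cells with at least 500 genes, 1000 UMIs and at most 10% mitochondrial UMIs were kept. No doublet caller was run and no doublets were removed. Cells were clustered with scanpy 1.11.5 and leidenalg 0.10.2 on 2000 variable genes without the cell cycle lists (30 components, 15 neighbours, resolution 0.8), and a cluster took a name, ending in -like, when 3 or more markers of a class were each present in at least 25% of its cells and its leading genes did not go against it.

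UMIs were summed per pool and class and tested with edgeR 4.0.16 (R 4.3.3, TMM, filterByExpr, quasi-likelihood, sex and treatment as terms, 1 residual degree of freedom), adjusted by Benjamini-Hochberg over all genes tested at 0.05. DESeq2 1.42.0 was an alternative. The steps were tested on simulated counts with 200 changed genes. P-values measure only the spread between pools, since each group is 1 pool of 4 mice. Intervals are exact (Poisson or Clopper-Pearson, 95%) and cover counting error only; a count of 0 allows 3 counts. Thinning drew 3000 UMIs per cell without replacement. Coordinates are those of GRCm38.p6, and sequences are from RefSeq and that genome.

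The members, the other lists and the tests were chosen with earlier results of these data known. Members given with every pool were the 3 with the highest mean CPM in each of 7 role groups, Mki67, and those with the largest and the smallest change. From each other list came the 2 with the largest change that passed, and any going against the majority where these were 5 or fewer. Genes like the members were the 10 with the highest mean r in no list, among those with a UMI in at least 2% of cells, and the 3 with the lowest r were added after their values were seen.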

Additional observations from a re-analysis of the deposited data

Results flagged for a closer look

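Cells of clusters that took no class name were left out of the comparisons. In the female stroke pool 18.7% of them had at least 3 member UMIs after thinning (34 of 182 cells, exact binomial 95% interval 13.3 to 25.1), against 2.41% in the female sham pool (2 of 83, 0.293 to 8.43). The male pools gave 12.8% in stroke and 5.45% in sham. These cells fell in 4 clusters, led by Mgl2 and Cd209a, by Ifitm1 and Klrd1, by Mgarp and Vat1l, and by Ear2 and Itgal, and 1 of them was found in stroke pools alone. The pools drew on different clusters, since the cluster led by Mgl2 held 78 of the 87 unnamed female sham cells, while those led by Ifitm1 and by Mgarp held 111 and 48 of the 199 unnamed female stroke cells. The shares therefore set different cells side by side.

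Among the list genes that did not pass, 4 went one way in females and the other in males after stroke. The log2 change was −0.24 in females and 0.09 in males for Lin52, 0.10 in females and −1.52 in males for Ccnd2, −0.14 in females and 0.06 in males for Ccnd3, and 0.19 in females and −0.06 in males for Myc. With 1 pool of each kind this difference was not tested.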

How the results depend on the processing

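All 40 members rose after stroke, and all 40 were lower in macrophage-like than in microglia-like cells, in every alternative run for those comparisons, and 0 of 40 were called between the sexes in each. No member changed direction in the stroke or the macrophage-like comparison. The sign of the members' difference between the sexes did depend on the pool left out, as given below. The counts over all genes moved more than the member calls. After stroke, library totals gave 2288 higher and 6370 lower genes, thinned cells 2002 lower and DESeq2 1585 lower, and leaving out 1 pool gave 2329 to 4475 higher and 1682 to 3988 lower. DESeq2 gave 2827 genes lower in macrophage-like cells. Between the sexes, library totals gave 18 higher and 21 lower genes in females, no filter 19 and 28, the male sham UMI minimum 15 and 26, DESeq2 2 higher, and leaving out 1 pool 1 to 2 higher and 2 to 4 lower. A fit without 1 pool drops the other term, so the sex contrast then mixes with treatment. The lone pool of a group is assumed to vary like the others. The members' log2 difference, female over male, changed sign with the pool left out. With all pools, 13 members lay above 0 and 27 below. All 40 lay above 0 without the male stroke or the female sham pool. All 40 lay below 0 without the female stroke or the male sham pool.

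Among the other G2 and M genes, 1 fell with library totals and 0 to 1 with a pool left out. Of the transcription control genes, 4 fell with library totals, 1 without a filter, with the cell cycle genes in the clustering or at resolution 1.6, 0 with DESeq2, and 0 to 4 with a pool left out. Of the G1 genes, 1 rose with library totals or DESeq2 and 1 to 3 with a pool left out, while 3 fell with library totals, 0 without a filter or with DESeq2, and 0 to 2 with a pool left out. Of the growth genes, 2 fell with library totals and 1 to 2 with a pool left out. The cause was not tested.

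Member UMIs per 10,000 in female stroke microglia-like cells were 30.4 at a mitochondrial limit of 5%, 29.4 at the male sham UMI minimum, 28.8 with the cell cycle genes in the clustering and 22.6 without Mki67 and Top2a. In male stroke cells they were 25.1, 25.4 and 19.9 at the limit, at the minimum and without both genes. In female sham cells they were 1.86 without both genes, and in male sham cells 3.26 with the cell cycle genes in the clustering and 2.63 without both genes.

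The share of cells above the cut in the female stroke pool was 25.2% at the mitochondrial limit, 33.6% at a cut of 2 and 22.7% at a cut of 5 UMIs, 23.5% and 36.0% when thinned to 2000 and 5000 UMIs, and 40.6% unthinned. In the male stroke pool it was 21.7%, 31.7%, 20.9%, 21.3%, 33.1% and 38.2% in the same order. In the female sham pool it was 3.04% and 0.629% at the cuts of 2 and 5, 1.89% at 5000 UMIs and 3.32% unthinned, and in the male sham pool 3.63%, 1.35%, 3.18% and 3.08%.

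Of 28 macrophage-like levels and shares under the alternatives, 18 fell outside the 95% interval of the reported value, between 1.54 and 3.01 per 10,000 for the female stroke level, 1.62 and 2.23 for the male one, 1.51% and 29.5% for the female stroke share and 6.25% and 23.9% for the male one. The order over S phase UMIs had a Spearman rank correlation of 0.918 to 0.985 with the order reported across its alternatives, 2 to 3 of the highest 5 and 3 to 5 of the lowest 5 genes were shared, and 31 to 39 members had a ratio above 1, 32 to 34 of them with a stroke pool left out. No paired analysis was possible because each group is 1 pool and the labels give no numbers shared between pools. Depth limits the sham values most, where the least counted member, Ttk, had 22 UMIs in the female sham sum.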
